A study of Mus musculus with 48 samples.

Results

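NRF2, the protein made from Nfe2l2, is the main transcription factor of the response to oxidants and electrophiles. Under resting conditions KEAP1, an adaptor of a ubiquitin ligase, holds NRF2 and hands it over for destruction. Oxidants modify KEAP1, NRF2 then builds up, pairs with a small MAF protein and binds antioxidant response elements near genes for glutathione synthesis, thioredoxin recycling, quinone reduction, haem breakdown and NADPH supply. Hepatocytes use these genes to make glutathione and to clear lipid peroxides and drugs. The genes described here are 10 such genes taken by symbol from the count tables of a mouse liver RNA-seq study, out of 29221 genes with reads. They are the regulators Nfe2l2 and Keap1, the glutathione genes Gclc, Gclm and Slc7a11, the thioredoxin pathway genes Txnrd1 and Srxn1, and Nqo1, Hmox1 and G6pdx. All 10 were found. They were taken by name, with earlier results of these data known.

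The study measured RNA from 48 whole mouse livers in 10 groups set by sex, diet and genotype, with 6 animals in each male group and 4 in each female group. All mice carried a floxed Pparg gene, the gene of a nuclear receptor that promotes fat storage. After 16 weeks on diet they received AAV8-TBG-null (controls) or AAV8-TBG-Cre, a virus with a hepatocyte promoter in front of Cre recombinase, so that other liver cells keep the gene (labelled knockouts). The diets were low fat (LF, 34 weeks, females only), high fat (HF, 34 weeks, both sexes) and HFCF, a diet rich in fat, cholesterol and fructose that replaced the HF diet after 18 weeks and was fed for 16 weeks (both sexes). Strain and age were not given in the sources used here. Each library stands for 1 animal, with replicates in the female HFCF controls numbered 1, 2, 3 and 5. In the text, CPM is a gene's reads scaled to a library size corrected with TMM factors, and a gene is called higher or lower where its edgeR quasi-likelihood p, adjusted over all genes tested in that comparison, is under 0.05. Values after ± are SD for levels and standard error (SE) for log2 fold changes. Where groups are said not to overlap, the share of all genes that separated in the same way is not given. Such statements describe the values only.

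Depth was 15338239 to 22072884 reads on genes per library. Pparg itself was not lower in the labelled knockouts: its mean was 34.3 CPM in HF control males and 41.2 CPM in HF labelled knockout males, and the labelled knockout mean was also the higher one in the other 4 pairs. The counts cover the whole gene, including any part left after recombination, so this level does not check the labels. Cidec, a fat droplet gene that PPARG activates, had means of 134 CPM in HF control males and 5.24 CPM in HF labelled knockout males; in LF females its means were 6.96 and 6.12 CPM. The hepatocyte markers were present in every library, with summed levels between 44810 and 126100 CPM. Adipocyte and pancreas markers summed to at most 0.218 CPM and 1.23 CPM in any library. The macrophage markers summed to 334 to 871 CPM in the LF and HF libraries and to 557 to 1379 CPM in the HFCF libraries. Across libraries the summed stellate cell markers ran from 158 to 797 CPM, endothelial markers from 109 to 289 CPM and lymphocyte markers from 4.04 to 14.4 CPM. In bulk tissue, fewer cells of a type and less RNA per cell cannot be told apart. A few libraries stood apart from their group. Replicate 1 of the male HFCF controls had macrophage markers at 557 CPM against 840 to 1180 CPM in the other 5, and cholangiocyte markers at 158 CPM against 468 to 555 CPM. In the female HF labelled knockouts, replicate 3 had neutrophil markers at 97.1 CPM against 6.25 to 9.2 CPM. Replicate 1 of the female HF controls had cholangiocyte markers at 276 CPM against 42.9 to 72.5 CPM, and replicate 1 of the female HFCF labelled knockouts had hepatocyte markers at 114900 CPM against 64590 to 82430 CPM. Several calls and list counts are also given without these libraries.

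Antioxidant response elements share the core TGACNNNGC, in which N is any base. RefSeq promoter windows (GRCm38.p6, 250 bases before to 50 bases after a start site, printed on the gene's own strand) were found for 8 of the 10 genes (all but Gclc and Hmox1), in 10 windows. Those of Srxn1, Gclm and G6pdx are shown whole because, among the genes with this core, these 3 gave the most calls. The core was searched on both strands and is in capitals, as it reads on the gene's strand.
Srxn1 (chr2:152105274-152105573, plus strand): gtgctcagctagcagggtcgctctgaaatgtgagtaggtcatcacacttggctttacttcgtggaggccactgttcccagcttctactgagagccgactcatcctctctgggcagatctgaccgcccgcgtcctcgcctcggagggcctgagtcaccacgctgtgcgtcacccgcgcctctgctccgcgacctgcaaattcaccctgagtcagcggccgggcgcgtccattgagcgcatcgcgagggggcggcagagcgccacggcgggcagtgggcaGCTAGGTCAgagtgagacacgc
Gclm (chr3:122245307-122245606, plus strand): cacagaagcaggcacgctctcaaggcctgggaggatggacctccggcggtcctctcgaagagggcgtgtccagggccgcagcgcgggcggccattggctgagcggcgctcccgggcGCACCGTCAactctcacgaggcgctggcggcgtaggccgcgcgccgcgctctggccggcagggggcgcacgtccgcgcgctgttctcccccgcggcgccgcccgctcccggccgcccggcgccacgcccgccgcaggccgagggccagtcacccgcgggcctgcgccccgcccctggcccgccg
G6pdx (chrX:74428831-74429130, minus strand): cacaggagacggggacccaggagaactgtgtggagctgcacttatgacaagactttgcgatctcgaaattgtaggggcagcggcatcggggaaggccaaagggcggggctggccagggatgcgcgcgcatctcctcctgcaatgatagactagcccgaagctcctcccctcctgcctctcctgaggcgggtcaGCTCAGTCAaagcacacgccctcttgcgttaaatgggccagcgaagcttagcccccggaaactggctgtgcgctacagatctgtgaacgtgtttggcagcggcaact
In all 3 the core lies on the opposite strand. Counting from the start site as position 1, its leftmost base is at 29 in Srxn1 (TGACCTAGC), at -134 in Gclm (TGACGGTGC) and at -57 in G6pdx (TGACTGAGC).

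Among the other windows, Nfe2l2 and the second start site of Txnrd1 also hold the core, shown with 10 bases on each side because NRF2 is known to act on its own gene and on thioredoxin reductase.
Nfe2l2 (within chr2:75704614-75704913, minus strand): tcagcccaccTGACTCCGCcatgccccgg
Txnrd1 (within chr10:82858956-82859255, plus strand): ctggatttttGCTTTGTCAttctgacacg
The Nfe2l2 match starts at -240 on the gene's strand (TGACTCCGC), and the Txnrd1 match lies at -92 on the opposite strand (TGACAAAGC). The windows of Keap1, Nqo1 and Slc7a11 and the other 2 windows of Txnrd1 hold no match. In all, 5 of the 10 windows hold the core, against 12.4% of 32851 promoter windows of the same length. The AP-1 motif TGAGTCA, which can overlap longer forms of the antioxidant element, is in the Srxn1 window at -102 and -45, where it is printed in lower case, and in 5.2% of all windows. These matches describe the letters only and do not show binding.

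Per length of transcript, Gclc was the most abundant of the 10, with a mean of 77.0 FPKM over all 48 libraries. Gclc encodes the catalytic subunit of glutamate-cysteine ligase, the rate-limiting enzyme of glutathione synthesis. Gclm, its modifier subunit, followed at 41.3 FPKM. Then came Nfe2l2 at 26.7, Srxn1 at 24.8, Txnrd1 at 23.8, Hmox1 at 17.5 and Keap1 at 12.8 FPKM. Nqo1, a quinone reductase that serves as a standard NRF2 readout, had 8.62 FPKM, and G6pdx, the first enzyme of the pentose phosphate pathway and a source of NADPH, 3.84 FPKM. Slc7a11, the cystine importer, was close to absent at 0.0269 FPKM. The 10 genes also differed in how much their group means varied. From the lowest to the highest group mean on the log2 CPM scale, Keap1 spanned 0.15, Nfe2l2 0.41, Txnrd1 0.59, Gclm 0.62, Nqo1 0.72 and Hmox1 0.84. Gclc spanned 1.49, Srxn1 1.52, G6pdx 1.79 and Slc7a11 4.70, the last from a group with 0 reads.

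**Figure D1:**
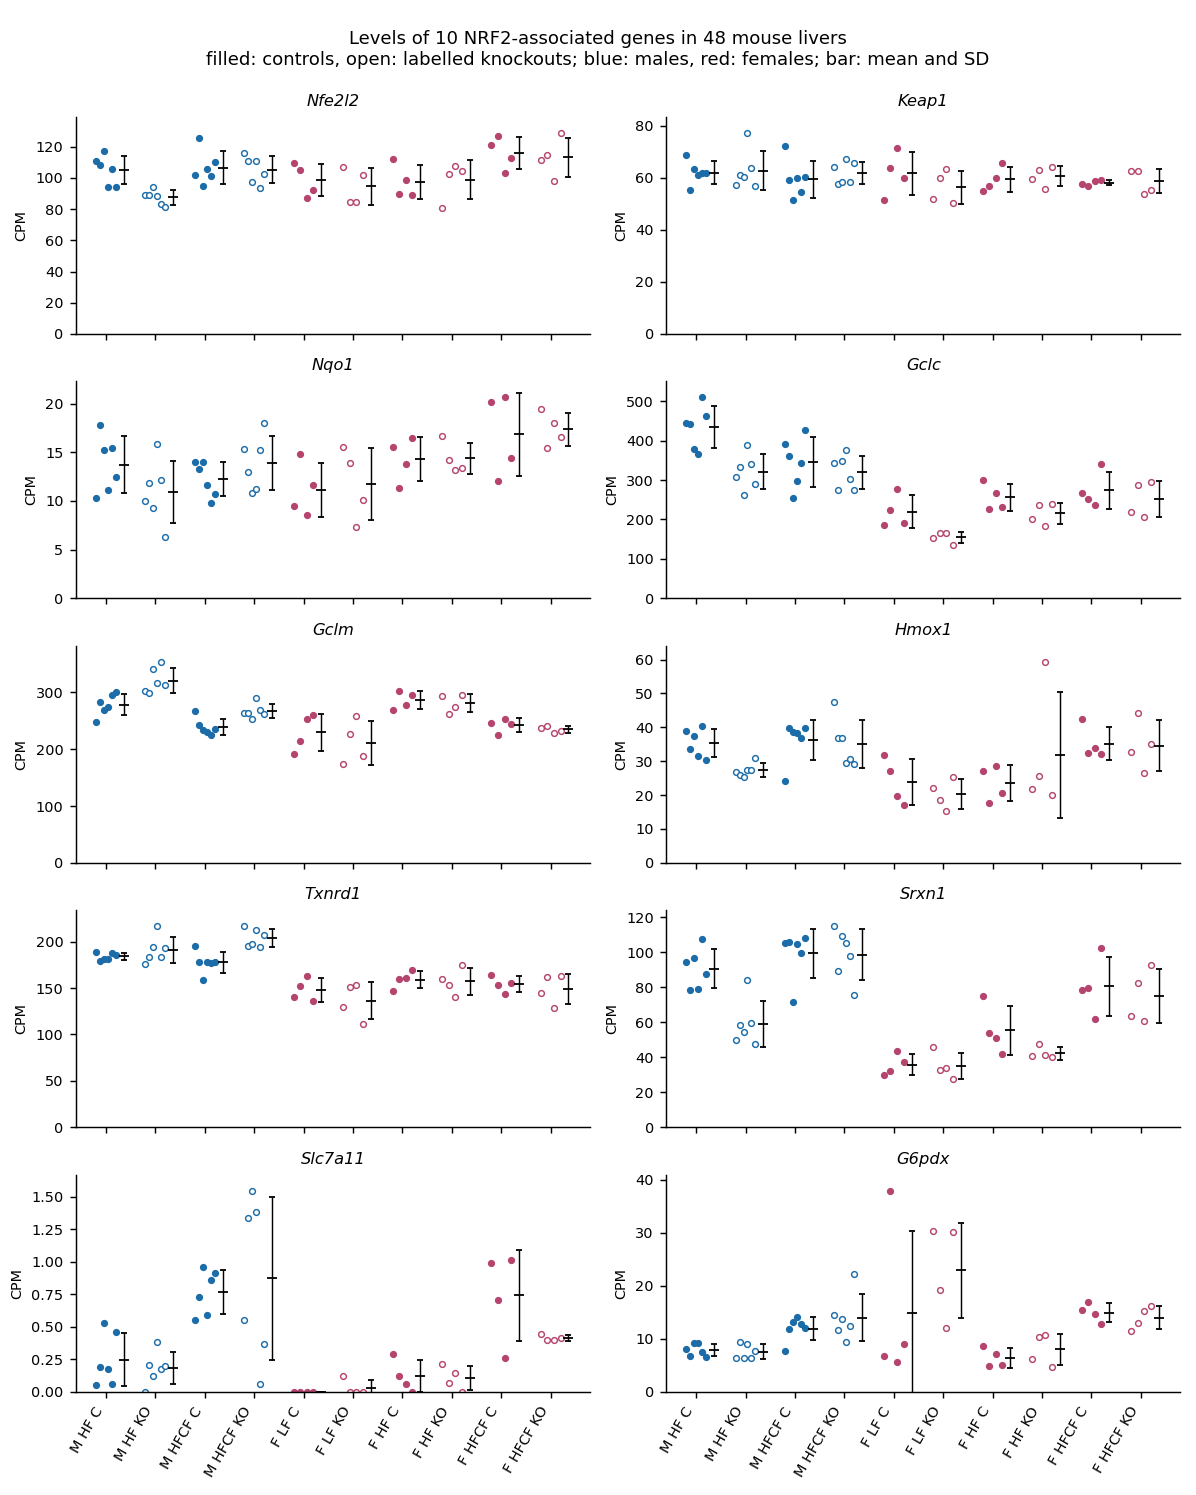
Level of each gene in CPM (vertical axes, starting at 0) in each of the 48 libraries, by group; filled circles are controls, open circles labelled knockouts, blue males, red females, and the bar beside each group is the mean and SD. Srxn1 is lowest in LF females and highest in HFCF males, Keap1 stays between 50.4 and 77.3 CPM, and 1 LF control female reaches 37.9 CPM for G6pdx.

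In the GRCm38 build, Srxn1 (ENSMUSG00000032802) lies on chromosome 2 at 152105516 to 152111376 on the plus strand, and Nfe2l2 (ENSMUSG00000015839) on the same chromosome at 75675513 to 75704641 on the minus strand. Gclc (ENSMUSG00000032350) lies on chromosome 9 at 77754535 to 77794485, Gclm (ENSMUSG00000028124) on chromosome 3 at 122245557 to 122270732 and Hmox1 (ENSMUSG00000005413) on chromosome 8 at 75093621 to 75100589, all on the plus strand. Values are for whole genes, counted over their exons. No strand was kept, and of the genes that overlap these 5 and Keap1 or Txnrd1 none had more than 46 reads in any library, against 819 or more for Keap1.

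The order of the group means was similar for several genes at its low end. LF labelled knockout females had the lowest mean for Keap1, Gclc, Gclm, Hmox1, Txnrd1 and Srxn1. For Gclc, the 4 male groups held the 4 highest places, from 320 ± 42.0 CPM in HFCF labelled knockouts to 434 ± 53.5 CPM in HF controls, and the female means ran from 154 ± 13.7 to 274 ± 46.8 CPM. Txnrd1, which encodes the cytosolic thioredoxin reductase, was ordered by sex in the same way, with male means of 178 to 204 CPM and female means of 136 to 159 CPM. Most neighbours in these orders did not differ beyond their spread. For Nfe2l2, Keap1, Nqo1, Hmox1 and Slc7a11, all 9 neighbouring pairs of group means lay closer than the larger of the 2 SDs. The same held for 7 of 9 pairs for Gclc, Gclm and Srxn1 and for 8 of 9 pairs for Txnrd1 and G6pdx. The widest step for Srxn1 that went beyond the spread ran from 59.1 ± 13.2 CPM in HF labelled knockout males to 74.9 ± 15.3 CPM in HFCF labelled knockout females. These groups differ in both sex and diet. The order did not divide HF from HFCF livers, as HF control males (90.7 ± 11.2 CPM) lay above HFCF control females (80.6 ± 16.9 CPM).

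The labelled knockout was compared with its control within each sex and diet. In HF males, RNA of Srxn1, Gclc, Hmox1 and Nfe2l2 was lower in the labelled knockouts and RNA of Gclm was higher, so 5 of the 9 genes tested were called. Across all 14041 genes tested, 8.57% were called higher and 9.88% lower. The 9 genes had a median log2 fold change of -0.27, against 0.0002 over all genes tested. On the HFCF diet in males, and in females on any diet, none of the genes was called.

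Srxn1 encodes sulfiredoxin, which restores over-oxidised peroxiredoxins. In HF control males Srxn1 ran from 78.6 through a median of 91.2 to 107 CPM, and in HF labelled knockout males from 47.7 through 56.4 to 84.3 CPM. The groups overlapped through 1 labelled knockout animal, replicate 4, which stood at 84.3 CPM while the other 5 stayed between 47.7 and 59.7 CPM. The log2 fold change was -0.62 ± 0.12 (adjusted p = 0.0020), and -0.75 (adjusted p = 5e-05) without that animal. Gclc fell with it: control males had 366 to 510 CPM with a median of 444 CPM, and labelled knockouts 262 to 389 CPM with a median of 321 CPM. Its log2 fold change was -0.44 ± 0.10 (adjusted p = 0.0048), and the highest labelled knockout, again replicate 4, overlapped the 2 lowest controls. Nfe2l2 did not overlap between the groups. It had 94.0 to 117 CPM in controls and 81.1 to 93.9 CPM in labelled knockouts (log2 fold change -0.27 ± 0.06, adjusted p = 0.0081).

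Hmox1 encodes haem oxygenase, which breaks haem down to biliverdin, iron and carbon monoxide, and in liver it is also made by Kupffer cells. Its levels were 30.4 to 40.3 CPM in HF control males and 25.4 to 31.0 CPM in HF labelled knockouts, where 1 labelled knockout reached into the control range. The log2 fold change was -0.38 ± 0.08 (adjusted p = 0.0037). Of the 10 macrophage markers, 3 were lower and 1 higher in the same comparison, and 4 of 6 hepatocyte markers were higher. Across all genes 9.88% were lower and 8.57% higher. Red blood cell markers ran from 164 to 815 CPM in labelled knockouts against 165 to 247 CPM in controls. The part of these cell types in the change of Hmox1 or of the other genes was not tested. Gclm moved the other way. Controls had 249 to 300 CPM and labelled knockouts 299 to 354 CPM, with the lowest labelled knockout just under the highest control (log2 fold change 0.20 ± 0.06, adjusted p = 0.038). The Gclm call was lost without any 1 of 5 libraries (control replicates 1, 3 and 4 and labelled knockout replicates 3 and 5), with adjusted p up to 0.092. It was also lost with no filter on low counts (adjusted p = 0.063). The other 4 calls held in all 12 fits that left out 1 library. Gclc and Gclm form 1 enzyme, and their RNAs thus changed in opposite directions in these livers.

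In HFCF males 0 of the 10 genes were called, while 2.21% of all genes were. At an unadjusted p under 0.05 the count was 2 genes, Gclm and Txnrd1. Txnrd1 ran from 158 through a median of 178 to 195 CPM in controls and from 195 through 202 to 217 CPM in labelled knockouts, and the groups touched at their edges (log2 fold change 0.20 ± 0.06, adjusted p = 0.084). Without replicate 1 of the controls, Gclm (adjusted p = 0.040) and Txnrd1 (adjusted p = 0.022) were called higher, and DESeq2 called Txnrd1 with all animals (adjusted p = 0.012). Srxn1, the gene with the largest fall in HF males, had medians of 105 CPM (controls) and 102 CPM (labelled knockouts) on HFCF. An interaction term tested the labelled knockout effect on HFCF against that on HF. It was called for 0 of the 10 genes, with 3 at an unadjusted p under 0.05 and 1 by DESeq2, and for 1.56% of all genes. For Srxn1 it was 0.60 ± 0.17 on the log2 scale (adjusted p = 0.073), and DESeq2 gave an adjusted p of 0.030. The Srxn1 interaction was called without replicate 4 of the HF labelled knockouts (0.73, adjusted p = 0.012), without replicate 2 of the HF controls and without replicate 6 of the HFCF labelled knockouts.

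In females 0 of the 9 genes tested were called between labelled knockouts and controls on each diet. Few genes were called at all, 0% on LF, 0% on HF and 0.0534% on HFCF. At an unadjusted p under 0.05 there was 1 of the 9 genes on LF, 1 on HF and 0 on HFCF, and 355, 1135 and 1340 of all genes. DESeq2 called 0 of the 9 on each diet and 7, 60 and 80 of all genes. The lowest of the unadjusted values on LF belonged to Gclc. LF control females had 186, 223, 277 and 192 CPM and LF labelled knockouts 152, 165, 165 and 136 CPM. All labelled knockouts lay below all controls. The log2 fold change of -0.50 ± 0.14 was far from a call (adjusted p = 0.9996). Srxn1 in HF females had 74.9, 53.7, 51.0 and 42.0 CPM in controls and 40.5, 47.5, 41.1 and 39.9 CPM in labelled knockouts (-0.39 ± 0.16, adjusted p = 0.61). Hmox1 in HF females had a log2 fold change of 0.44 ± 0.34 (adjusted p = 0.77), and of -0.07 (adjusted p = 0.98) without replicate 3 of the labelled knockouts. Whether the labelled knockout effect on the HF diet differed between the sexes was tested too. For 0 of the 9 genes and 0% of all genes was it called, with 3 of the 9 and 1590 of all genes at an unadjusted p under 0.05, and by DESeq2 with 0 of the 9 and 47 of all genes. For Hmox1 that interaction was -0.81 ± 0.31 (adjusted p = 0.42), and -0.30 (adjusted p = 0.67) without the same animal. The labelled knockout by diet interaction in females likewise gave 0 of the 9 and 0% of all genes, with 0 and 667 at an unadjusted p under 0.05 and 0 and 0 by DESeq2.

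**Figure D2:**
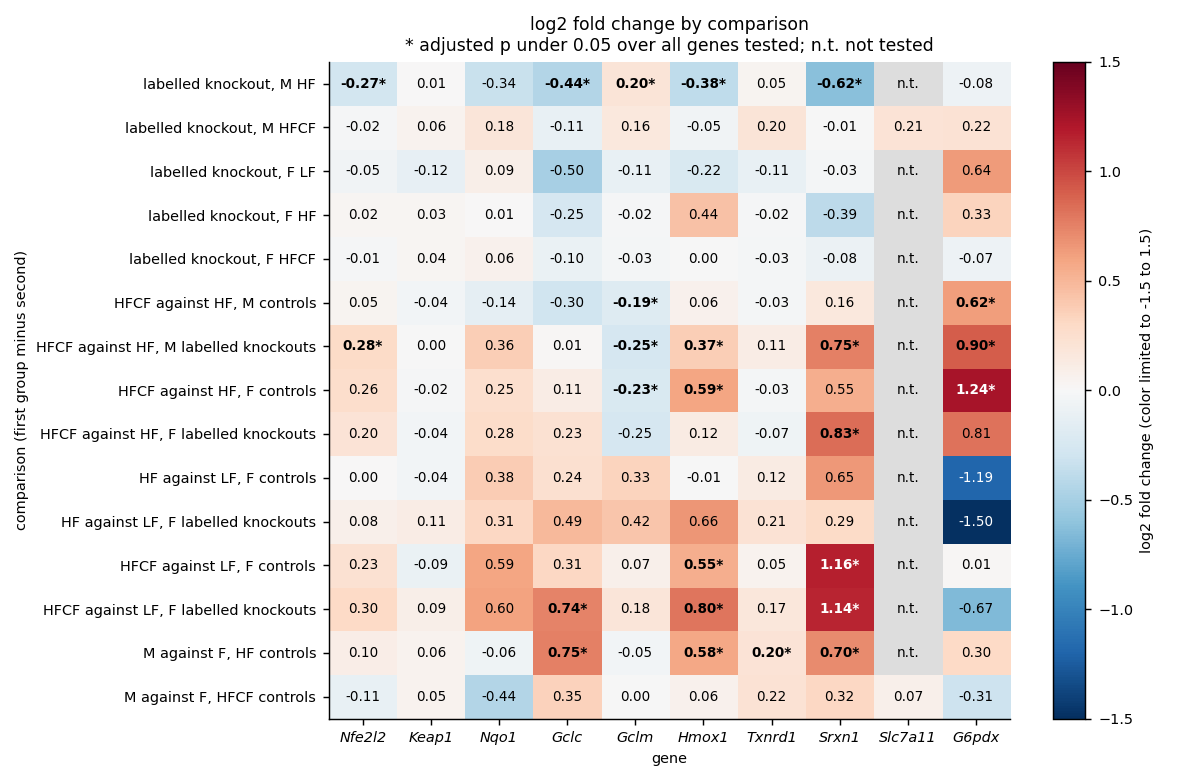
log2 fold change of each gene (columns) in each comparison (rows), with the first named group as numerator; color runs from blue (lower) to red (higher), bold values with a star passed an adjusted p of 0.05, and n.t. marks genes not tested. Calls lie mostly in the rows of HF males and of the HFCF diet, and Keap1, Nqo1 and Slc7a11 have none.

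HFCF livers were compared with HF livers of the same sex and genotype, a contrast that changed many genes: 14.5% to 41.7% of all genes were called in the 4 comparisons, and 1 to 5 of the 9 NRF2 genes. HFCF livers had more G6pdx RNA in 3 of 4 comparisons and less Gclm RNA in 3 of 4. Srxn1 was higher in labelled knockouts of both sexes, and Hmox1 in labelled knockout males and control females. These comparisons reuse livers of the labelled knockout comparisons, and in females the comparisons with LF reuse the same HFCF livers, so their values are given side by side only.

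In control males, G6pdx was higher and Gclm lower, 1 call in each direction among 9 genes tested, beside 13% of all genes higher and 9.31% lower. G6pdx ran from 6.64 through a median of 7.82 to 9.28 CPM on HF and from 7.71 through 12.4 to 14.1 CPM on HFCF. The overlap came from replicate 1 of the HFCF controls at 7.71 CPM, the animal with few macrophage and cholangiocyte transcripts. The log2 fold change was 0.62 ± 0.14 (adjusted p = 0.0067), and 0.72 (adjusted p = 8.07e-05) without that animal. Gclm fell from a median of 278 to 235 CPM (-0.19 ± 0.06, adjusted p = 0.033), but this call held in 3 of 12 fits that left out 1 library. It was lost, with adjusted p up to 0.075, without any 1 of HF control replicates 2, 4, 5 and 6 and HFCF control replicates 2 to 6, and with no filter on low counts (adjusted p = 0.054). Without replicate 1 of the HFCF controls 4 genes were called, G6pdx and Slc7a11 higher and Gclm and Gclc (-0.34, adjusted p = 0.031) lower. For Slc7a11 this is no change of a result, as the filter on low counts had left it untested with all animals. Srxn1 had medians of 91.2 and 105 CPM and was not called (adjusted p = 0.28).

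In labelled knockout males 5 of the 9 genes were called, 4 higher and 1 lower. The background was also large there, with 21.6% of all genes higher and 20% lower, and the median log2 fold change of the 9 genes was 0.28 against -0.02 over all genes. Srxn1 rose from 47.7 to 84.3 CPM (median 56.4) on HF to 75.5 to 115 CPM (median 102) on HFCF. Replicate 4 of the HF animals lay inside the HFCF range, and the log2 fold change was 0.75 ± 0.13 (adjusted p = 0.00032). G6pdx separated the groups fully, with 6.31 to 9.43 CPM on HF and 9.46 to 22.2 CPM on HFCF (0.90 ± 0.18, adjusted p = 0.00096). Gclm did so in the other direction, with 299 to 354 CPM on HF and 254 to 290 CPM on HFCF (-0.25 ± 0.06, adjusted p = 0.0037). Nfe2l2 rose by 0.28 ± 0.06 (adjusted p = 0.0022) and Hmox1 by 0.37 ± 0.11 (adjusted p = 0.011). All 5 calls held in each of the 12 fits without 1 library, and without replicate 4 of the HF animals Nqo1 and Txnrd1 were called as well.

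In control females, G6pdx and Hmox1 were higher and Gclm lower among 9 genes tested, beside 16.9% of all genes higher and 13.8% lower. G6pdx had 8.59, 4.77, 7.10 and 5.02 CPM on HF and 15.4, 17.0, 14.7 and 12.7 CPM on HFCF, a log2 fold change of 1.24 ± 0.20 (adjusted p = 0.0056) with no overlap. Hmox1 had 27.2, 17.7, 28.6 and 20.5 CPM on HF and 42.4, 32.5, 33.8 and 32.0 CPM on HFCF. These groups did not overlap either (0.59 ± 0.16, adjusted p = 0.025), though the call was lost, with adjusted p up to 0.072, without HF replicate 2, HF replicate 4 or HFCF replicate 1, and with all female groups in one fit (adjusted p = 0.11). Gclm fell from 268, 303, 278 and 296 CPM to 246, 225, 254 and 244 CPM (-0.23 ± 0.08, adjusted p = 0.049). That value lay at the threshold, and the call held in 2 of 8 fits without 1 library, those without HF replicate 1 or HFCF replicate 3 (adjusted p up to 0.13 in the others), and it was lost with either other filter and with all female groups in one fit (adjusted p = 0.069 to 0.12). Srxn1 missed the threshold with all animals (0.55 ± 0.20, adjusted p = 0.058). Replicate 1 of the HF controls, the animal with many cholangiocyte transcripts, had 74.9 CPM of Srxn1 against 42.0 to 53.7 CPM in the other 3. Without it 6 genes were called, with Srxn1 at 0.73 (adjusted p = 0.0048) and Nfe2l2 at 0.34 (adjusted p = 0.014) added. Slc7a11 was among the 6, but the filter on low counts had left it untested with all animals, so its call is no change of a result. The same 6 genes were called without HFCF replicate 3, and G6pdx alone without HF replicate 2, HF replicate 4 or HFCF replicate 1.

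In labelled knockout females Srxn1 alone was called, beside 8.44% of all genes higher and 6.01% lower. It had 40.5, 47.5, 41.1 and 39.9 CPM on HF and 63.6, 82.3, 60.8 and 92.9 CPM on HFCF, with no overlap (0.83 ± 0.15, adjusted p = 0.0071). G6pdx and Gclm did not overlap between the diets and missed the threshold, G6pdx at 0.81 ± 0.26 (adjusted p = 0.059) and Gclm at -0.25 ± 0.09 (adjusted p = 0.099). Hmox1 depended on 1 animal. The HF labelled knockouts had 21.7, 25.5, 59.4 and 20.1 CPM, and the third value is replicate 3, the animal with many neutrophil transcripts. Its log2 fold change was 0.12 ± 0.33 (adjusted p = 0.84) with that animal and 0.63 (adjusted p = 0.036) without it, and then G6pdx was called too (0.995, adjusted p = 0.026). Without replicate 1 of the HFCF animals, which had many hepatocyte transcripts, Srxn1, G6pdx (0.91, adjusted p = 0.029) and Gclm (-0.24, adjusted p = 0.044) were called.

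The HFCF livers also held more macrophage and cholangiocyte transcripts on average. This did not extend to every cell type: lymphocyte markers had mean sums of 7.41 CPM on HF and 8.01 CPM on HFCF in control males. In labelled knockout females their mean sums were 8.49 CPM on HF and 6.84 CPM on HFCF. Of the 10 macrophage markers, 9 were higher on HFCF than on HF in control males, labelled knockout males and control females, and 5 in labelled knockout females. All 5 cholangiocyte markers were higher in each of these 4 comparisons. The share of all genes called higher was 13%, 21.6%, 16.9% and 8.44% in the same order. Of the 6 hepatocyte markers, 3 to 4 were lower in the first 3 comparisons, beside 9.31%, 20% and 13.8% of all genes. Hmox1 and Srxn1 were both called higher only in labelled knockout males. Hmox1 without Srxn1 was called in control females, and Srxn1 without Hmox1 in labelled knockout females. In control males neither was called (Hmox1 0.06, adjusted p = 0.73, and Srxn1 0.16, adjusted p = 0.28). The part of cell makeup in these values was not tested. Whether the diet effect differed between the sexes was tested in controls. For 0 of the 10 genes was it called, and for 0.00646% of all genes (1 gene), with 3 of the 10 and 2561 of all genes at an unadjusted p under 0.05 and 0 and 124 by DESeq2. G6pdx rose by 0.62 in control males and 1.24 in control females, a difference of -0.61 ± 0.24 (adjusted p = 0.24), and of -0.78 (adjusted p = 0.037) without replicate 1 of the female HF controls, where 4.05% of all genes were called higher and 6.73% lower.

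In females the HF and HFCF diets could also be set against the LF diet. HF against LF gave 0 calls among the 9 genes tested in controls, where 0.696% of all genes were called, or in labelled knockouts, where 0.155% were. At an unadjusted p under 0.05 the counts were 2 and 3 of the 9 genes, and 2314 and 1902 of all genes. DESeq2 called 1 of the 9 in controls (Srxn1, 0.65, adjusted p = 0.028) and 2 in labelled knockouts (Gclc, 0.49, adjusted p = 0.0062, and G6pdx, -1.5, adjusted p = 0.00055), among 638 and 499 genes. Gclm had 192, 214, 254 and 260 CPM in LF controls and 268, 303, 278 and 296 CPM in HF controls, all of them higher, without passing the test (0.33 ± 0.11, adjusted p = 0.20). Gclc in labelled knockouts had 152, 165, 165 and 136 CPM on LF and 201, 237, 184 and 239 CPM on HF, again without overlap (0.49 ± 0.11, adjusted p = 0.10).

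HFCF against LF gave more calls, all of them higher. In controls, Srxn1 and Hmox1 were called among 9 genes, beside 18.4% of all genes higher and 16.8% lower. Srxn1 had 29.8, 32.4, 43.6 and 37.5 CPM on LF and 78.4, 79.5, 61.6 and 103 CPM on HFCF. The lowest HFCF liver lay well above the highest LF liver, and the log2 fold change was 1.16 ± 0.16 (adjusted p = 0.00088). Hmox1 had 31.8, 27.2, 19.6 and 17.0 CPM on LF and 42.4, 32.5, 33.8 and 32.0 CPM on HFCF (0.55 ± 0.19, adjusted p = 0.048). Its groups were separated by less than 1 CPM, and the call held in 2 of 8 fits without 1 library, those without LF replicate 1 or HFCF replicate 3 (adjusted p up to 0.13 in the others), and it was lost with all female groups in one fit (adjusted p = 0.12). Nqo1 had 9.48, 14.8, 8.57 and 11.6 CPM on LF and 20.1, 12.1, 20.7 and 14.5 CPM on HFCF. With 0.59 ± 0.21 it lay at the threshold (adjusted p = 0.051, and 0.027 to 0.17 in 6 other settings, 5 of which called it). Fits without 1 library called 1 to 4 genes, with Slc7a11 and Nfe2l2 added without LF replicate 1 or HFCF replicate 3, and Srxn1 alone without HFCF replicate 1 or 5. Slc7a11 had been left untested with all animals, so its addition is no change of a result.

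In labelled knockouts, Srxn1, Hmox1 and Gclc were called higher on HFCF than on LF, beside 8.26% of all genes higher and 3.74% lower. Srxn1 had 45.6, 32.5, 33.6 and 27.8 CPM on LF and 63.6, 82.3, 60.8 and 92.9 CPM on HFCF (1.14 ± 0.19, adjusted p = 0.0043). Gclc had 152, 165, 165 and 136 CPM on LF and 219, 288, 205 and 295 CPM on HFCF (0.74 ± 0.16, adjusted p = 0.014). Hmox1 had 22.1, 18.5, 15.4 and 25.4 CPM on LF and 32.6, 44.3, 26.4 and 35.2 CPM on HFCF (0.80 ± 0.19, adjusted p = 0.019). In these 3 called genes every HFCF liver lay above every LF liver. The same held for Slc7a11, which was left untested for its low counts. The share of all genes that separated in this way is not given here. The Srxn1 call held in all 8 fits without 1 library, the Gclc call in 6 and the Hmox1 call in 4. Both of the latter were lost without HFCF replicate 2 or 4, and Hmox1 also without LF replicate 2 or 3, with adjusted p up to 0.056 for Gclc and 0.069 for Hmox1. With all female groups in one fit Hmox1 had an adjusted p of 0.052. Macrophage markers summed to 354 to 712 CPM in LF females and to 948 to 1379 CPM in HFCF females. Of the 10 markers, 9 were higher on HFCF in both genotypes, beside 18.4% of all genes in controls and 8.26% in labelled knockouts. The part of macrophages in the 3 called genes was not tested.

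G6pdx varied widely among LF livers. In LF control females it had 6.66, 37.9, 5.69 and 9.04 CPM, and in LF labelled knockouts 30.2, 19.1, 12.0 and 30.2 CPM. One control animal, replicate 2, thus stood with the labelled knockouts while the other 3 stood with the HF livers. Its SD in LF controls, 15.5 CPM, exceeded its mean of 14.8 CPM. HFCF against LF in controls gave a log2 fold change of 0.01 ± 0.52 (adjusted p = 0.99) with replicate 2 and 1.06 (adjusted p = 0.0041) without it. In labelled knockouts all HF livers (6.24, 10.3, 10.7 and 4.71 CPM) lay below all LF livers, at -1.5 ± 0.33 (adjusted p = 0.098). The gene lies on chromosome X at 74409483 to 74429194 on the minus strand and wholly inside the span of Ikbkg, an NF-kB pathway gene on the plus strand. The libraries were not strand specific, so reads from the 2 genes cannot be told apart where exons overlap. Ikbkg had group means of 69.9 to 77.2 CPM in females and 85.6 to 93.8 CPM in males, and in females its highest mean was in the LF controls and its lowest in the LF labelled knockouts.

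**Figure D3:**
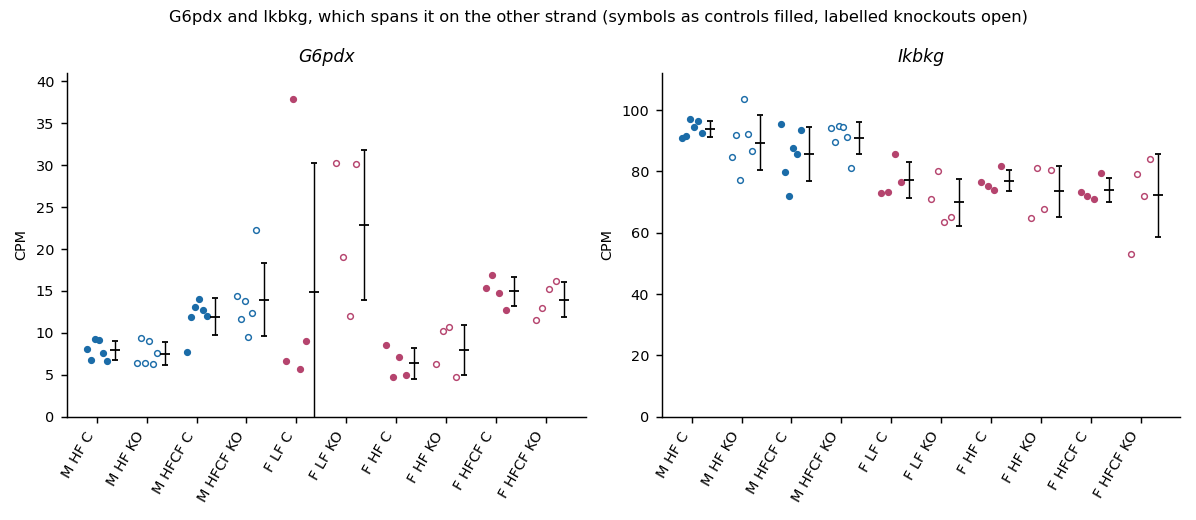
Levels in CPM (vertical axes from 0) of G6pdx (left) and of Ikbkg (right), which spans it on the other strand, in each library by group, with the mean and SD beside each group. G6pdx spreads from 5.69 to 37.9 CPM among LF control females, while Ikbkg stays between 73.1 and 85.8 CPM in the same animals.

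Slc7a11 brings in cystine for glutathione synthesis and responds to NRF2 and to ATF4. It was so low that the filter on low counts left it in 1 of the 13 comparisons. LF control females had 0 reads in all 4 libraries, which allows up to 0.0414 CPM over the group, and LF labelled knockouts had 2 reads, both in replicate 1. HF females had 8 reads in controls and 8 in labelled knockouts, and HFCF females 58 and 30. In males the counts were 26 and 17 reads on HF and 90 and 106 on HFCF. Set against 3 reads in the LF controls, the share of reads in HFCF control females was 19.4-fold higher. This value uses plain read totals without TMM factors, and leaves out the counting error and animal spread of the HFCF group. With no filter on low counts, Slc7a11 was called higher on HFCF than on HF in control males (adjusted p = 0.017), labelled knockout males (adjusted p = 0.0074) and control females (adjusted p = 0.026). It was also called higher on HFCF than on LF in controls (adjusted p = 0.00087) and labelled knockouts (adjusted p = 0.024), but not on HFCF against HF in labelled knockout females (adjusted p = 0.15). In control males the groups did not overlap, with 0.0547 to 0.529 CPM on HF and 0.551 to 0.958 CPM on HFCF.

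Keap1, Nqo1 and Txnrd1 were called in none of the 13 comparisons. Keap1 held group means between 56.4 and 62.7 CPM. Its log2 fold changes between groups lay between -0.12 and 0.11. Nqo1 was low, with group means from 10.9 to 17.4 CPM and SDs of up to 4.23 CPM. Srxn1 and Hmox1 were called in 5 comparisons each, 4 times higher and 1 time lower, Gclm in 4 (1 higher, 3 lower), G6pdx in 3 (all higher), and Nfe2l2 and Gclc in 2 (1 each way). The comparisons share livers, so these counts are not independent. Several of the Hmox1 and Gclm calls were lost in fits that left out 1 library.

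Males and females were compared after their values had been seen, within controls of 1 diet. On HF, Gclc, Srxn1, Hmox1 and Txnrd1 were called higher in males, 4 of 9 genes, and none lower, beside 8.52% of all genes higher and 9.58% lower. Gclc had 366 to 510 CPM in the 6 males and 299, 227, 267 and 233 CPM in the 4 females (log2 fold change 0.75 ± 0.11, adjusted p = 0.0011). Srxn1 had 78.6 to 107 CPM in males and 74.9, 53.7, 51.0 and 42.0 CPM in females (0.70 ± 0.14, adjusted p = 0.0069). Both genes separated the sexes without overlap, and the share of all genes that did so is not given. Hmox1 was higher in males by 0.58 ± 0.14 (adjusted p = 0.013) and Txnrd1 by 0.20 ± 0.06 (adjusted p = 0.028), the latter lost, with adjusted p up to 0.058, without male replicate 1 or 3 or female replicate 2 or 3, and with no filter on low counts (adjusted p = 0.074). On HFCF 0 of the 10 genes were called, beside 2.63% of all genes, with 4 of the 10 at an unadjusted p under 0.05 and 1 (Txnrd1) by DESeq2. Gclc then differed by 0.35 ± 0.15 (adjusted p = 0.27) and Txnrd1 by 0.22 ± 0.07 (adjusted p = 0.13). The diet by sex interaction in controls was not called for the 4 genes called on HF (Gclc -0.40 ± 0.19, adjusted p = 0.30). Calls on HF and none on HFCF thus do not show that the sex difference depends on diet. The males and females carry separate ranges of animal numbers, so sex and cohort cannot be told apart here.

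Other genes of the pathway were taken from 9 lists of 4 to 19 genes each. In HF males, 7 of 13 detoxification and transport genes were lower in the labelled knockouts and 1 was higher. The share over all genes was 9.88% lower and 8.57% higher, against which the lists that follow are to be read. Among them Cbr3, a carbonyl reductase, went from 5.73 ± 2.29 to 1.66 ± 1.04 CPM (n = 6 each; log2 fold change -1.79 ± 0.34, adjusted p = 0.0016). Of 17 glutathione genes 3 were lower and 1 higher. Gsta1, a glutathione transferase, went from 10.0 ± 3.2 to 3.63 ± 3.52 CPM (-1.47 ± 0.40, adjusted p = 0.018), and Gsta3 rose from 1550 ± 120.0 to 2050 ± 225.0 CPM (0.40 ± 0.08, adjusted p = 0.0026). Transferases of 1 class are close paralogs, and counts for each of them are uncertain. Of 10 partners and regulators of NRF2, 3 were lower and 2 higher. The small MAF genes, whose products pair with NRF2, split: Maff fell from 14.3 ± 2.36 to 7.74 ± 1.51 CPM (-0.89 ± 0.14, adjusted p = 0.0004) and Mafg rose from 135 ± 14.6 to 173 ± 12.3 CPM (0.35 ± 0.07, adjusted p = 0.0033). Of 12 thioredoxin and peroxiredoxin genes 3 were higher, with Prdx4 at 0.47 ± 0.08 (adjusted p = 0.00092) and Prdx6 at 0.37 ± 0.07 (adjusted p = 0.0014), and 2 lower, with Txnip, an inhibitor of thioredoxin, at -0.88 ± 0.11 (adjusted p = 6.55e-05). Of 7 NADPH supply genes 3 were lower. The ATF4 list and the phagocyte NADPH oxidase list each had 1 lower of 5, haem and iron handling 1 each way of 8, and superoxide removal 0 of 4, with 2 at an unadjusted p under 0.05. Without replicate 4 of the labelled knockouts 5 glutathione genes, 4 partners and regulators and 4 NADPH supply genes were lower and 1 superoxide removal gene higher, beside 10.5% of all genes lower and 9.16% higher.

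In HFCF males several glutathione transferases were higher in the labelled knockouts. Of 18 glutathione genes 4 were higher and 1 lower, beside 2.21% of all genes in either direction. Without replicate 1 of the controls 7 of 19 were higher and 1 lower, and 2 thioredoxin and peroxiredoxin genes were called higher in place of 0, beside 4% of all genes higher. Gsta1 rose from 8.31 ± 1.81 to 16.2 ± 3.84 CPM (0.96 ± 0.16, adjusted p = 0.0054) and Gstm3 from 194 ± 38.6 to 313 ± 73.9 CPM (0.69 ± 0.16, adjusted p = 0.040). Gpx4, the peroxidase of lipid hydroperoxides, fell from 390 ± 21.2 to 291 ± 33.2 CPM (-0.43 ± 0.08, adjusted p = 0.0081). Abcc3, an exporter of organic anions, fell from 449 ± 71.6 to 254 ± 16.5 CPM (-0.82 ± 0.09, adjusted p = 0.00019). The ATF4 targets Chac1 (-1.58 ± 0.33, adjusted p = 0.024) and Trib3 (-0.68 ± 0.14, adjusted p = 0.021) were lower too. The labelled knockout by diet interaction in males was called for Gsta1 (2.41 ± 0.46, adjusted p = 0.0075), Cbr3 (2.05 ± 0.44, adjusted p = 0.017), Gstm3 (1.53 ± 0.32, adjusted p = 0.016) and Gsta2 (1.11 ± 0.23, adjusted p = 0.016).

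On HFCF against HF, the 5 phagocyte NADPH oxidase genes were all higher in control males, labelled knockout males and control females, beside 13%, 21.6% and 16.9% of all genes. In labelled knockout females 0 of 5 were called (2 at an unadjusted p under 0.05), and 5 of 5 were higher without replicate 3 of the HF animals, which had many neutrophil and macrophage transcripts. Cybb, its catalytic subunit, went from 26.8 ± 2.05 to 76.1 ± 11.2 CPM in labelled knockout males (1.52 ± 0.09, adjusted p = 1.31e-07). Of the glutathione genes 1 of 17 was higher in control males, 9 in labelled knockout males, 5 in control females and 8 in labelled knockout females, beside 13%, 21.6%, 16.9% and 8.44% of all genes. Lower were 1, 2, 3 and 0 of them, beside 9.31%, 20%, 13.8% and 6.01% of all genes. Without replicate 1 of the HF control females, 9 glutathione genes were higher there, beside 24.2% of all genes. Gstm3 rose from 86.4 ± 38.9 to 313 ± 73.9 CPM in labelled knockout males (1.87 ± 0.24, adjusted p = 3.1e-05) and from 43.7 ± 34.8 to 304 ± 71.7 CPM in control females (2.80 ± 0.52, adjusted p = 0.0072). Of the thioredoxin and peroxiredoxin genes none was higher in any of the 4 comparisons, and 1, 6, 4 and 0 of 12 were lower. Without replicate 1 of the HFCF control males 5 were lower there, beside 17.4% of all genes, and without replicate 1 of the HFCF labelled knockout females 4 were lower in labelled knockout females, beside 14%. Superoxide and peroxide removal had 2, 3, 2 and 1 lower of 4 (1 became 3 without replicate 1 of the HFCF labelled knockout females), with Sod2, the mitochondrial superoxide dismutase, at -0.57 ± 0.11 (adjusted p = 0.0080) in control females. Against LF, 7 of 13 detoxification and transport genes were higher in HFCF controls and 5 in labelled knockouts, beside 18.4% and 8.26% of all genes, and 0 were lower. Gsta1 rose there from 0.326 ± 0.351 to 5.07 ± 0.844 CPM in controls (3.92 ± 0.54, adjusted p = 0.00088). HF against LF called Aox1, an aldehyde oxidase, in controls (0.73 ± 0.13, adjusted p = 0.042) and no other gene of these lists. The Aox1 call was lost without replicate 1 of the HF controls or replicate 2 of the LF controls. Of 17 glutathione genes, 10 were higher and 1 lower in HF control males than in HF control females, and of 12 thioredoxin and peroxiredoxin genes 0 were higher and 4 lower, beside 8.52% of all genes higher and 9.58% lower.

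**Figure D4:**
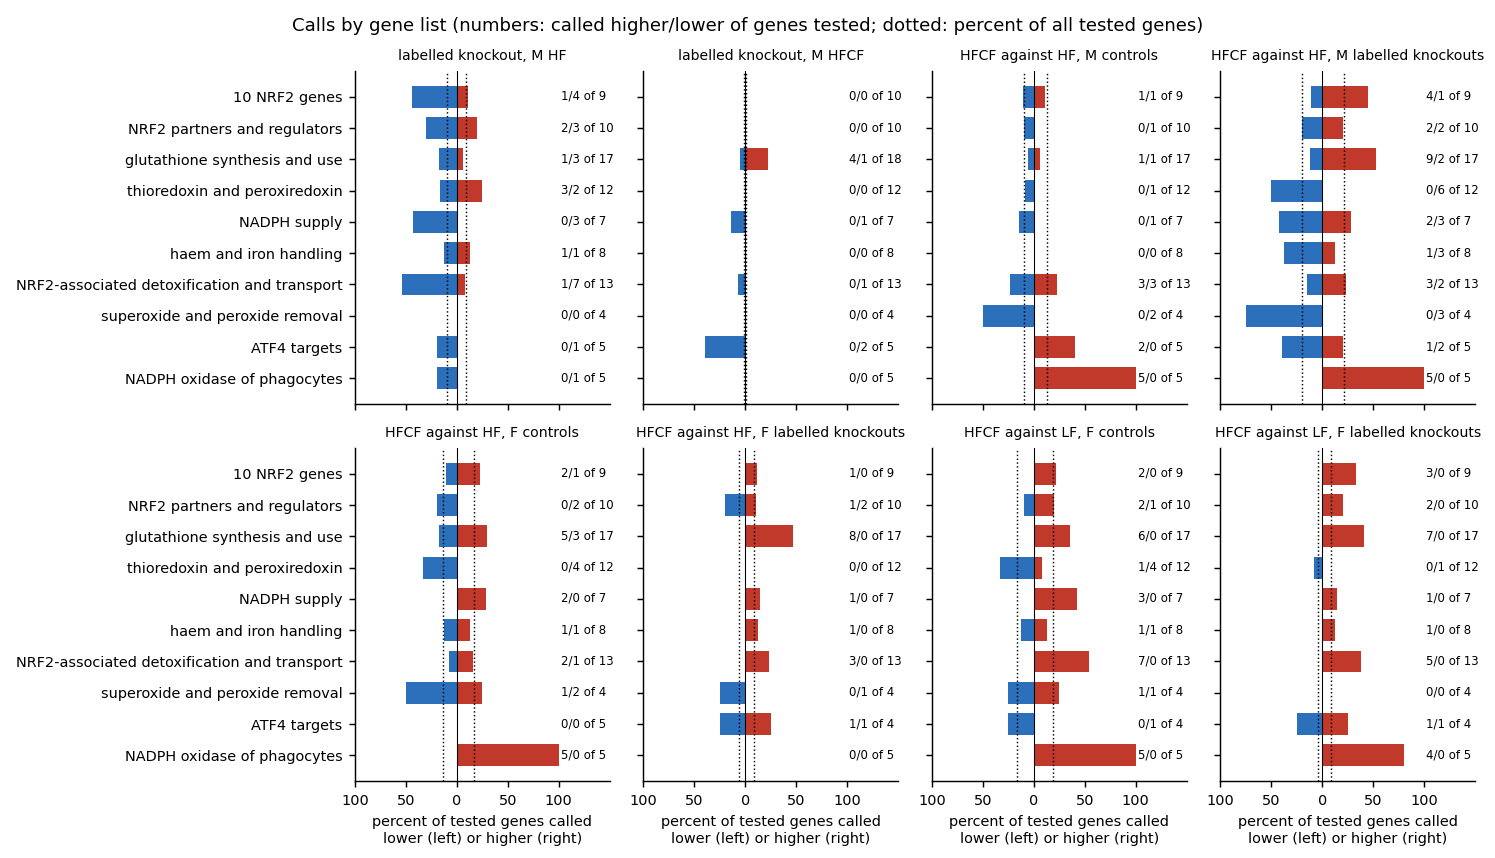
Share of tested genes called higher (red, to the right) or lower (blue, to the left) in each gene list, in 8 comparisons; the numbers give calls higher/lower of genes tested, and dotted lines give the share of all tested genes called in each direction. In HF males the detoxification and transport list has 7 lower of 13, and on the HFCF diet the phagocyte NADPH oxidase list is wholly higher in 4 of the 6 diet comparisons.

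For the 3 genes of the 10 with the widest range of group means, the genes with the nearest pattern were sought among 12358 genes, by the root-mean-square difference of 10 centred group means of log2 CPM. Nearest to Srxn1 were Myo9b (0.103), Samd4 (0.116) and Scamp5 (0.128). Nearest to Slc7a11 were the cell division genes Hmmr (0.384), Iqgap3 (0.454) and Cdc20 (0.456), and nearest to G6pdx were Pdzk1ip1 (0.273), Rtl8c (0.279) and P2rx7 (0.291). Slc7a11 had 0 reads in LF control females and 2 in LF labelled knockouts. Its log2 means there are largely set by the 0.5 added to each count, so its pattern lies at the floor. The G6pdx pattern includes an LF control mean raised by 1 animal (37.9 CPM against 5.69 to 9.04 CPM in the others). Myo9b ran from 47.1 CPM in LF control females to 123 CPM in HFCF labelled knockout males, and Srxn1 from 34.9 CPM in LF labelled knockout females to 99.3 CPM in HFCF control males. These distances rest on 10 group means that share libraries and diets, and are a description.

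**Figure D5:**
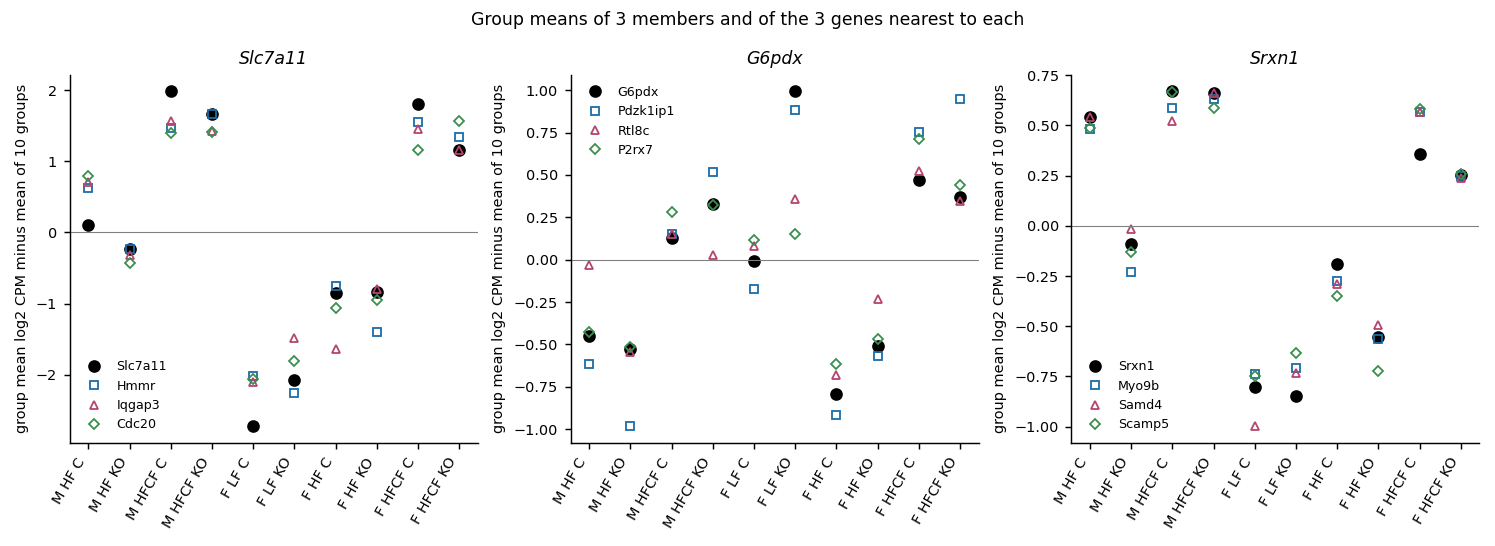
Group mean of log2 CPM minus the mean of the 10 groups (vertical axes) for Slc7a11, G6pdx and Srxn1 (black circles) and the 3 genes nearest to each (open symbols), by group. The nearest genes of Srxn1 lie within 0.103 to 0.128 of it on average, and those of Slc7a11 within 0.384 to 0.456.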

How the data were processed

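Whole-liver RNA was sequenced in 48 libraries, 1 per animal, from non-strand-specific libraries with inserts of 250 to 300 bp, per the labels' protocols. STAR 2.6.1, HTSeq 0.6.1, DESeq2 and the builds GRCm38 and mm10 are named per the submitters' processing notes; their settings are not given in the sources used here. The deposited tables hold raw counts per gene, per the file headers. Beside them stand a normalised signal, which is the count divided by 1 factor per library by the authors, and FPKM computed by the authors. The authors' log2 fold changes and p-values are deposited in the same tables and were not used.

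Counts of all 11 tables were joined by gene identifier; 1341082 values stand in more than 1 table and 0 of them differed. Genes with low counts were removed with edgeR's filter in each comparison. The quasi-likelihood test of edgeR 4.0.16 (R 4.3.3, limma 3.58.1, TMM factors) was fitted on the groups of each comparison, with Benjamini-Hochberg adjustment over all genes tested and a threshold of 0.05. The script was checked on simulated data. There were 13 pairs and 4 interactions, and 2 comparisons of sexes added after the data were seen. FPKM was used for levels between genes. DESeq2 1.42.0, other filters and factors, 1 fit over all groups, a replicate block and leaving out each library were the alternatives. List counts without the libraries that stand apart were added after the data were seen. Figures and joins used Python 3.11.15, pandas 2.3.3, numpy 2.4.6 and matplotlib 3.10.9.

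All 10 genes are named in each comparison. From the wider lists at most 4 called genes in each direction per comparison are named, those with the largest log2 fold change and a mean of at least 1 CPM. For the 3 genes with the widest range of group means (prior count 0.5), the 3 genes nearest in pattern are named, predicted genes left out. The genes and the lists were chosen with earlier results of these data known. Intervals from counting and floors of 3 reads cover counting error only.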

Additional observations from a re-analysis of the deposited data

Results flagged for a closer look

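Of 99 combinations of gene and group, 9 held a library that stood far from the other animals of its group by Dixon's criterion, and chance alone flags about 1 in 20. In HF labelled knockout males, replicate 4 was the highest of 6 for Srxn1 (84.29 CPM against 47.7 to 59.67 CPM in the others) and for Keap1 (77.28 CPM against 56.91 to 63.74 CPM). In HFCF control males, replicate 1, which had few macrophage and cholangiocyte transcripts, was the lowest for Hmox1 (24.23 CPM against 36.77 to 39.86 CPM) and for G6pdx (7.71 CPM against 11.87 to 14.1 CPM), and replicate 3 was the lowest for Srxn1 (71.73 CPM against 99.73 to 108.4 CPM). In HF labelled knockout females, replicate 3, which had many neutrophil transcripts, was the highest for Hmox1 (59.37 CPM against 20.11 to 25.53 CPM), and replicate 2 was the highest for Srxn1 (47.5 CPM against 39.94 to 41.05 CPM). In LF females, replicate 2 of the controls was the highest for G6pdx (37.94 CPM against 5.691 to 9.042 CPM), and replicate 1 of the labelled knockouts was the only one with reads of Slc7a11 (0.12 CPM).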

How the results depend on the processing

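No value of the 10 genes that was called reversed its direction under an alternative. The number of genes called moved by more than 1.5 times as follows, with the cause not tested. DESeq2 called 1 gene in place of 0 for the labelled knockout in HFCF males, 4 in place of 2 for HFCF against HF in control males, 5 in place of 3 in control females and 3 in place of 1 in labelled knockout females. It also called 1 in place of 0 for HF against LF in controls, 2 in place of 0 in labelled knockouts, 4 in place of 2 for HFCF against LF in controls, and 1 in place of 0 for the labelled knockout by diet interaction in males and for males against females on HFCF. Over all genes DESeq2 called 638 in place of 99 for HF against LF in controls and 499 in place of 22 in labelled knockouts. With no filter on low counts, which lets Slc7a11 be tested, the counts were 2 for HFCF against HF in labelled knockout females, 1 for HF against LF in labelled knockouts, 4 for HFCF against LF in controls and 5 in labelled knockouts. With all groups in one fit, 1 gene was called for the labelled knockout in HFCF males. A replicate block left 0 of 3 calls for HFCF against HF in control females and 1 of 2 for HFCF against LF in controls. Same-numbered animals do not deviate together: over 13 comparisons the correlations of their deviations ran from -0.288 to 0.422, in 0 comparisons were all pairs over 0.1, and in 0 did every sample match best with its own number. The numbers were therefore not treated as pairs, and across the sexes no paired fit was possible.

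Leaving out 1 library at a time gave 4 to 5 called genes for the labelled knockout in HF males and 0 to 2 in HFCF males. For HFCF against HF it gave 1 to 4 in control males, 5 to 7 in labelled knockout males, 1 to 6 in control females and 1 to 3 in labelled knockout females. For HFCF against LF it gave 1 to 4 in controls and 1 to 4 in labelled knockouts, for the labelled knockout by diet interaction in males 0 to 1, for the diet by sex interaction 0 to 1, and for males against females on HF 3 to 5. In the other 8 comparisons it gave 0 throughout. The highest counts for HFCF against HF and HFCF against LF in controls include Slc7a11, which was not tested with all animals. Gclm in HF males had an adjusted p of 0.063 with no filter. Hmox1 for HFCF against HF in control females was lost with all groups in one fit (adjusted p = 0.11). Group means of CPM moved by less than 1 SD for 100 of 100 levels with DESeq2 size factors and for 85 of 100 with plain library totals. Depth limits Slc7a11, which had at most 106 reads in a group.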
